A study of Mus musculus with 8 samples.

Results

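The genes described here are 34 integrin and focal adhesion genes, taken by symbol from a table of 16369 genes: 9 integrin alpha subunits, 3 beta subunits, 10 activators and actin linkers, 3 genes of the ILK complex, 6 kinases and adaptors, and 3 zyxin or LIM genes. All 34 had a row, and 31 passed the filter on low counts and were tested. They were measured by RNA-seq in MLO-Y4, an established mouse line with osteocyte properties. Controls (4 libraries, genotype label WT, deposited as NC) were compared with cells in which the long non-coding RNA H19 was silenced by an antisense oligonucleotide (ASO, 4 libraries). The ASO libraries carry the genotype label H19 silenced. Both groups were grown in fluid chamber slides and received fluid shear stress of 2 Pa for 4 cycles, so every value below is from cells under flow. The labels do not say what the controls received in place of the ASO, name no unsheared group, and do not say whether the libraries of a group were separate cultures. The p-values therefore measure the spread between these libraries, which may be technical.

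Integrins are alpha-beta pairs that span the membrane and bind extracellular matrix outside the cell. Inside, talin and kindlin bind the beta tail and switch the receptor on, vinculin, alpha-actinin, filamin and tensin tie it to actin, and FAK, Src, paxillin and p130Cas pass the signal on. Osteocytes are tethered to the canalicular wall through integrins, and these contacts are among the structures proposed to sense fluid flow.

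The promoter stretches below are shown because they held a CArG box, the motif that serum response factor (SRF) binds. Of the 25 members with a promoter at hand, only Vcl (vinculin) and Fermt2 (kindlin-2), which fell with the ASO, held one. Tns1 and Zyx, which also fell, held none, and Itga7, which fell too, had no promoter at hand. A part of SRF in these changes was not tested. The stretches are reference sequence (RefSeq, build GRCm38.p6), 5′ to 3′ on the gene's strand, with the CArG box in capitals. The Vcl stretch is chr14:20929148-20929210 on the plus strand, with the box beginning 227 bases before the start site. The Fermt2 stretch is chr14:45530230-45530299 on the minus strand, with the box beginning 204 bases before the start site of its promoter window. That start site and the whole stretch lie within the annotated gene, which on this strand begins at 45530310.
Vcl: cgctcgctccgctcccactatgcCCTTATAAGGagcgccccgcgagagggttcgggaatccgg
Fermt2: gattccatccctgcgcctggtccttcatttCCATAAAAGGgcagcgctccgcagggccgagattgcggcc

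Promoters of 300 bases (250 before and 50 after the start) were at hand for 25 members, 32 promoters in all, and 4 motifs were searched on both strands. The CArG box was in 2 of the 32, against 1.63% of all 32851 promoters and 1.26% of those of tested genes. CATTCC, the core that TEAD factors bind, was in 5 (14.7% and 12.04%), in Itgb1, Vcl, Actn4, Lpp and Flna. TGANTCA, a loose form of the AP-1 site that takes any base at its centre, was in 3 (7.81% and 5.18%). These matches read TGAGTCA in Zyx and TGAATCA in Itga3 and Actn4. The GC box GGGCGG was in 22 (35.7% and 62.1%). In Vcl the CATTCC match began 143 bases before the start and did not overlap the CArG box. A match describes letters in this window and was not tested as a binding site.

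Library totals ran from 19501984 to 19914209 estimated reads. CPM below are reads scaled to library size, and TPM also to gene length. As an osteocyte check, Gja1 (328 TPM) and Pdpn (170 TPM) were well expressed in controls, whereas Dmp1 averaged 1.14 TPM and Sost and Mepe at most 0.035 TPM in either group. With the ASO, of 8 tested osteocyte markers 3 fell (Dmp1 by 1.46 ± 0.34, Bglap by 0.60 ± 0.15 and Fbln7 by 0.46 ± 0.09 on the log2 scale) and 2 rose (Pdpn by 0.22 ± 0.06 and Cd44 by 0.19 ± 0.05), and their part in the results below was not tested. Endothelial and epithelial marker lists (3 of 8 and 8 of 8 genes in the table) summed to below 1 TPM in every library. Leukocyte markers (9 of 12 genes in the table) summed to 32.7 to 48.3 TPM in controls and 56.8 to 63.5 TPM with the ASO. Cd68, a lysosomal membrane gene, went from 10.4 to 29.8 TPM, while the pan-leukocyte gene Ptprc was at 0.12 and 0.13 TPM. Muscle markers (8 of 8) summed to 12.2 to 19.2 TPM in controls and 5.72 to 10.2 TPM with the ASO, mainly Acta1 and Des, with the muscle-determining genes Myod1 and Myog below 0.1 TPM. Samples 1 and 2 separated from samples 3 and 4 on the second principal component (17.1% of the variance), a division that the labels do not name and that each group contains. Fewer cells of a kind and less RNA per cell cannot be told apart in these bulk libraries.

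In control cells the adhesion genes spanned a wide range of levels per length. Zyx, which encodes zyxin, a LIM protein recruited to adhesions and stress fibres under tension, was at 1227 ± 78.3 TPM (SD, n = 4) and Itga5, the alpha subunit of the fibronectin receptor, at 1184 ± 127 TPM. These neighbours in the order did not differ beyond their spread. Cav1, the coat gene of caveolae, followed at 466 ± 20.2 TPM, then the alpha-actinin gene Actn4 at 377 ± 15.5 TPM, with Actn1 (275 ± 8.37), Flna (275 ± 22.5) and Vcl (264 ± 24.8) close together. At the low end stood Ptk2b (7.33 ± 0.66), Tln2 (6.39 ± 0.96) and Itga1 (1.33 ± 0.33 TPM).

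**Figure D1:**
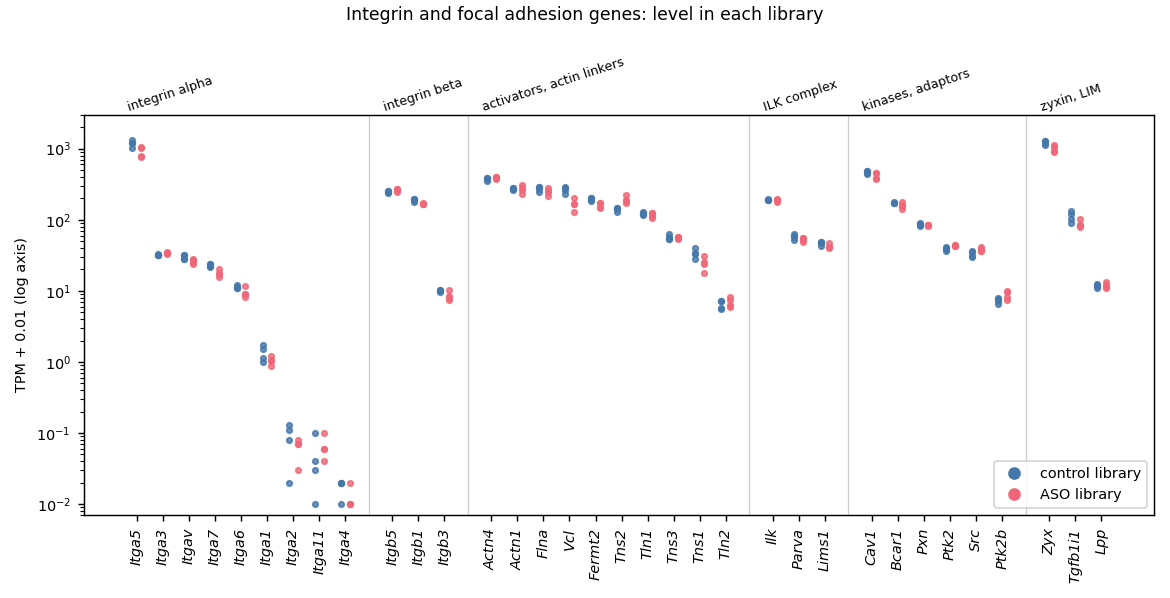
TPM (plus 0.01, log axis) of the 34 members in each library, grouped by role. Each point is 1 library; Itga5 and Zyx lie highest, while Itga2, Itga11 and Itga4 lie below 0.2 TPM in every library.

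The alpha subunits were dominated by a single gene. Itga5 made up 92.3% ± 0.90 of the summed TPM of the 9 alpha subunits in controls, and Itgav, the partner of the vitronectin-binding beta subunits, 2.38% ± 0.41. Itga3, whose product binds laminin, was at 32.1 ± 0.30 TPM, Itgav at 30.2 ± 2.44, the laminin receptor subunits Itga7 and Itga6 at 22.9 ± 1.05 and 11.3 ± 0.59 TPM. The collagen receptor subunits among these 9 had few reads: Itga1 had 65 to 119 reads per library, Itga2 1 to 10 reads and Itga11 0 to 5 reads. Itga4, whose product binds VCAM1 and fibronectin, had at most 1 read per library. Itga2, Itga11 and Itga4 were not tested.

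Of the 3 beta subunits, Itgb5 was the highest in controls, at 248 ± 5.23 TPM, then Itgb1, the common partner of most alpha subunits, at 190 ± 10.1 TPM. Itgb3, the partner of Itgav in the osteoclast and osteocyte vitronectin receptor, was at 10.1 ± 0.41 TPM. Per length, Itga5 transcript thus stood above Itgb1 transcript. These are transcript levels and give no protein amounts.

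With the ASO, vinculin, kindlin-2, tensin-1, zyxin and integrin alpha 7 transcripts fell and tensin-2 transcript rose; the other 25 tested members did not pass. Thus 5 of 31 were lower and 1 was higher at an adjusted p of 0.05 over all genes in edgeR, with 4 libraries per group. Of all 12227 tested genes, 7.53% were lower and 7.11% higher, 14.6% in either direction. In this fit, on group alone, 6 of 31 members were called in either direction, a share near the background. The lower share was above its background and the higher share below. These gaps rest on few genes and were not tested. The median log2 fold change was -0.10 over the members and 0.0026 over all tested genes. In 9 members no ASO library overlapped a control in CPM (Vcl, Fermt2, Itga7, Itgb1 and Itgav below, Tns2, Itgb5, Itga3 and Src above), against 19.1% of all tested genes. The count of lower members was 3 when control replicate 2, control replicate 4 or ASO replicate 4 was dropped, each alone. The count of lower genes over all tested genes also dropped in these fits, from 921 to 567, 655 and 576. The count of higher members was 2 when control replicate 3 or 4, or ASO replicate 3, was dropped. All tested genes higher were then 885 of 12308, 610 of 12296 and 586 of 12283. With the division of samples 1 and 2 from 3 and 4 fitted too, 12 of 31 members were lower and 3 higher. Among all 12227 genes 1576 were then lower and 1560 higher. In samples 3 and 4 alone, 10 members were lower and 1 higher, against 1079 and 1056 of 12265 genes. In samples 1 and 2 alone they were 4 and 3, against 529 and 507 of 12295. These gaps were not tested either.

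**Figure D2:**
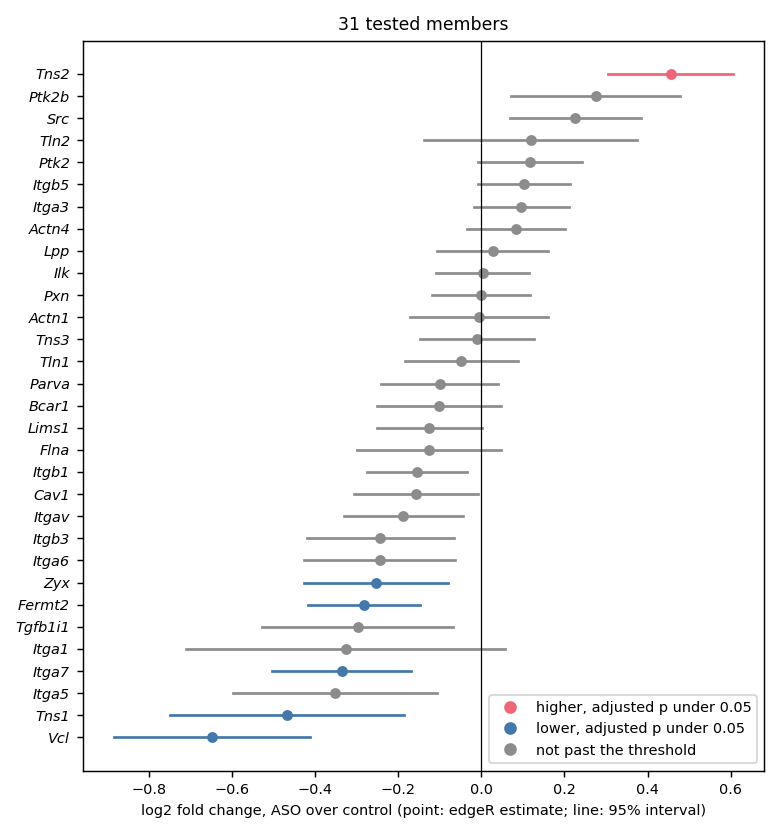
Log2 fold change, ASO over control, of the 31 tested members, with points for the edgeR estimate and lines for its 95% interval. Vcl lies lowest at -0.65 and Tns2 highest at 0.46; grey members did not pass the adjusted threshold.

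Vcl (gene 22330, chromosome 14, 20929383 to 21033676, GRCm38.p6) encodes vinculin, which binds stretched talin and reinforces its link to actin. In the 4 controls it was at 877, 919, 740 and 820 CPM, and in the 4 ASO libraries at 655, 517, 549 and 420 CPM. The groups did not overlap, and the lowest control exceeded the highest ASO library. The fall was 0.65 ± 0.11 on the log2 scale (SE, adjusted p = 0.0022, edgeR), from 839 ± 77.5 to 535 ± 97.0 CPM (SD, n = 4), a change of -36.2%. The value was -0.61 in samples 1 and 2 alone and -0.69 in samples 3 and 4 alone. On the opposite strand, exons of Ap3m1 cover 25.5% of the annotated exon bases of Vcl, and the counting is not stated to use strand. Ap3m1 was at 25.9 ± 2.26 CPM in controls and 27.4 ± 2.15 CPM with the ASO, far below Vcl in both.

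Fermt2 (gene 218952, chromosome 14, 45458792 to 45530310) encodes kindlin-2, which binds the beta tail together with talin. Controls held 384, 391, 353 and 363 CPM and ASO libraries 327, 319, 298 and 282 CPM, with no overlap. It fell by 0.28 ± 0.06 (adjusted p = 0.0093, edgeR), and the call held in all 8 leave-one-out fits. Its partner in activation, Tln1, did not pass: 624, 683, 603 and 650 CPM in controls and 660, 630, 619 and 566 CPM with the ASO, overlapping throughout. The log2 fold change of Tln1 was -0.05, with a 95% interval from -0.18 to 0.09. Tln2, the less abundant talin, was at 0.12 with an interval from -0.14 to 0.37, and made up 4.94% ± 0.64 of talin TPM in controls and 5.597% ± 0.56 with the ASO (exact permutation p = 0.20, two-sided).

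The tensin genes, which encode adaptors between beta tails and actin, went in different directions. Tns2 (gene 209039, chromosome 15, 102098475 to 102116401) was at 403, 418, 361 and 399 CPM in controls and at 544, 606, 499 and 519 CPM with the ASO. Every ASO library lay above every control. The rise was 0.46 ± 0.07 (adjusted p = 0.0012, edgeR), or 1.37-fold, and held in all 8 leave-one-out fits. Tns1 (gene 21961, chromosome 1, 73910232 to 74124548) was at 192, 237, 164 and 196 CPM in controls and at 177, 146, 142 and 107 CPM with the ASO. The groups overlapped, as ASO replicate 1 lay above control replicate 3. Tns1 fell by 0.47 ± 0.13 (adjusted p = 0.030, edgeR), and this call held only without control replicate 3 or ASO replicate 1: leaving out any other library gave an adjusted p of up to 0.094. It was also lost with DESeq2's own filter (adjusted p = 0.064) and in the limma-trend fits on TPM (adjusted p = 0.050, 0.051 and 0.11). Tns3 was at -0.01 with an interval from -0.15 to 0.13.

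As a share of the summed TPM of Tns1, Tns2 and Tns3, Tns1 was at 14.2%, 16.7%, 13.1% and 14.2% in controls and 11.01%, 8.42%, 9.32% and 7.12% with the ASO. The groups did not overlap, and the difference of -5.56 percentage points had an exact permutation p = 0.029, the smallest that 70 divisions of 8 libraries allow. The permutation p adjusted over the 9 shares compared was 0.086, which did not pass.

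**Figure D3:**
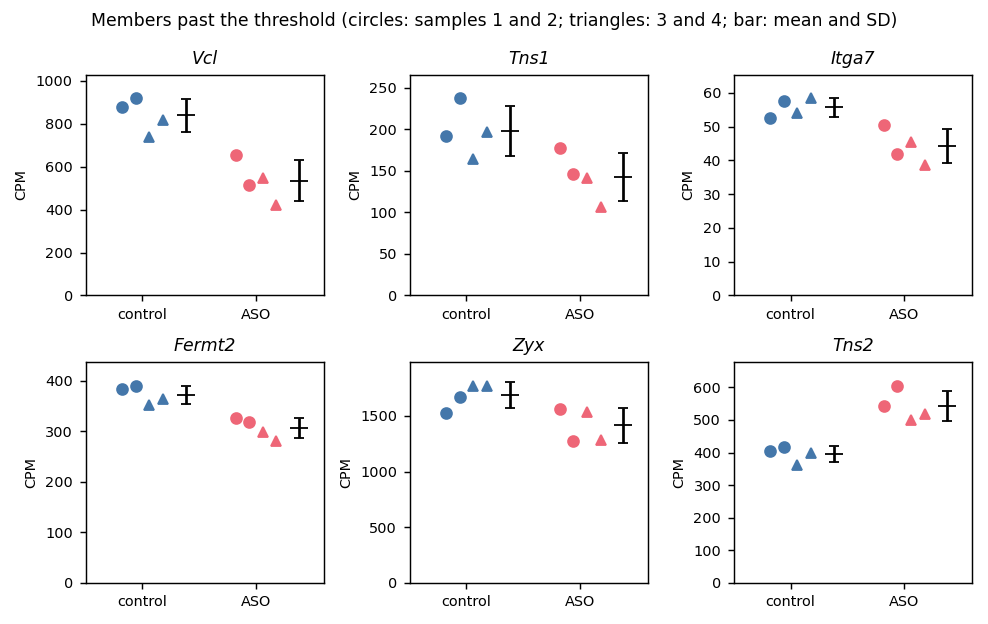
CPM in each library for the 6 members past the threshold, with mean and SD as bars. Vcl, Itga7, Fermt2 and Tns2 have no overlap between groups, whereas Tns1 and Zyx do.

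Other actin linkers did not pass. The alpha-actinin genes Actn1 (log2 fold change -0.0058, interval -0.17 to 0.16) and Actn4 (0.08, -0.04 to 0.20) and the filamin gene Flna (-0.13, -0.30 to 0.05) had intervals that span 0. Actn4 made up 57.8% ± 0.78 of the TPM of both alpha-actinin genes in controls and 59.4% ± 2.35 with the ASO (exact permutation p = 0.29).

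Itga7 (gene 16404, chromosome 10, 128933421 to 128958286), the laminin receptor subunit best known from muscle, was at 52.6, 57.6, 54.2 and 58.4 CPM in controls and at 50.4, 42.0, 45.6 and 38.6 CPM with the ASO. Every ASO library was below every control. It fell by 0.34 ± 0.08 (adjusted p = 0.012, edgeR), with -0.42 (adjusted p = 7.3e-04) in samples 3 and 4 alone and -0.25 (adjusted p = 0.13) in samples 1 and 2 alone. The muscle marker sum given above was lower in the same libraries, and its part in the value of Itga7 was not tested.

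Itga5 had a similar size but not the same certainty. Its controls were at 2642, 3175, 3181 and 3478 CPM and its ASO libraries at 2802, 2042, 2849 and 2084 CPM. ASO replicates 1 and 3 lay above the lowest control, and ASO replicates 2 and 4 well below it. The log2 fold change was -0.35 ± 0.11 (adjusted p = 0.055, edgeR), just outside the threshold, with an interval from -0.60 to -0.11. It passed when control replicate 1, ASO replicate 1 or ASO replicate 3 was dropped (adjusted p = 0.035, 0.028 and 0.035), with DESeq2 (adjusted p = 0.023 on the same genes, 0.024 with its own filter) and in samples 3 and 4 alone (adjusted p = 0.0033). It also passed with no filter (adjusted p = 0.031), in limma-trend on filtered TPM (adjusted p = 0.047 and 0.048) and with the division as a term (adjusted p = 0.014). In all, it passed in 11 of the 22 alternatives run.

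Itgav was at 142, 143, 124 and 124 CPM in controls and at 121, 121, 118 and 108 CPM with the ASO. The groups did not overlap, but the controls of samples 3 and 4 were close to the ASO libraries, and the log2 fold change of -0.19 ± 0.07 did not pass (adjusted p = 0.074, edgeR). Without control replicate 3 its adjusted p was 0.049. Itga6 was at 40.2, 44.6, 39.8 and 39.7 CPM in controls and 32.8, 41.2, 31.1 and 33.5 CPM with the ASO, where ASO replicate 2 alone reached the controls. It did not pass (-0.25 ± 0.08, adjusted p = 0.067, edgeR) but passed without ASO replicate 2 (adjusted p = 0.0085). Itga3 was at 93.8 ± 1.116 CPM in controls and 100.2 ± 4.40 CPM with the ASO, a log2 fold change of 0.10 with an interval from -0.02 to 0.21. Itga1 was at -0.33 with an interval from -0.71 to 0.06.

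None of the 3 beta subunits passed in the fit on group alone, and Itgb1 and Itgb3 passed in some alternatives. Itgb1 was at 479, 499, 479 and 437 CPM in controls and 421, 423, 435 and 423 CPM with the ASO. Every ASO library was below the controls, although control replicate 4 came close to them (log2 fold change -0.15 ± 0.06, adjusted p = 0.082, edgeR). It passed once the division of samples was fitted too (adjusted p = 0.031, edgeR) and with DESeq2 on the same genes (adjusted p = 0.032). Itgb5 was at 465, 481, 459 and 479 CPM in controls and 518, 508, 489 and 507 CPM with the ASO, all above the controls in CPM but overlapping in TPM (0.10 ± 0.05, adjusted p = 0.20, edgeR). Itgb3 was at 36.1, 36.8, 33.7 and 35.4 CPM in controls and 29.8, 35.2, 28.5 and 26.4 CPM with the ASO, where ASO replicate 2 overlapped the controls (-0.24 ± 0.08, adjusted p = 0.062, edgeR). The adjusted p of Itgb3 in edgeR was 0.010 without ASO replicate 2 and 0.011 with the division as a term.

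The balance between beta subunits was compared within each library. Itgb1 made up 42.4% ± 1.54 of the summed TPM of Itgb1, Itgb3 and Itgb5 in controls and 38.3% ± 0.90 with the ASO, and Itgb5 55.4% ± 1.51 and 59.8% ± 0.88. Neither share overlapped between groups, the closest libraries being control replicate 4 and ASO replicate 3 (40.1% and 39.6% for Itgb1). For both shares the exact permutation p = 0.029 was the smallest possible, and adjusted over the 9 shares p = 0.086. As for Tns1, the adjusted value could pass only if most of the 9 shares reached that smallest p together. The Itgb5 difference depends on this total, which leaves out Itgb7, a beta subunit gene at 141 TPM in controls and 173 TPM with the ASO. Over all 8 beta subunit genes in the table, a total added after the data were seen, Itgb5 was at 41.2% ± 1.54 and 42.2% ± 1.36, and the groups overlapped (exact permutation p = 0.31, adjusted p = 0.40). Itgb1 was then at 31.5% ± 2.14 and 27.0% ± 0.50, still without overlap (exact permutation p = 0.029, adjusted p = 0.13). Over the 3 genes, the Itgb3 share was 2.26% ± 0.07 and 1.92% ± 0.24 (exact permutation p = 0.057, adjusted p = 0.13). The shares of Itga5 (92.3% and 91.0%, exact permutation p = 0.17) and Itgav (2.38% and 2.65%, exact permutation p = 0.34) of the TPM of the 9 alpha subunits did not pass either.

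**Figure D4:**
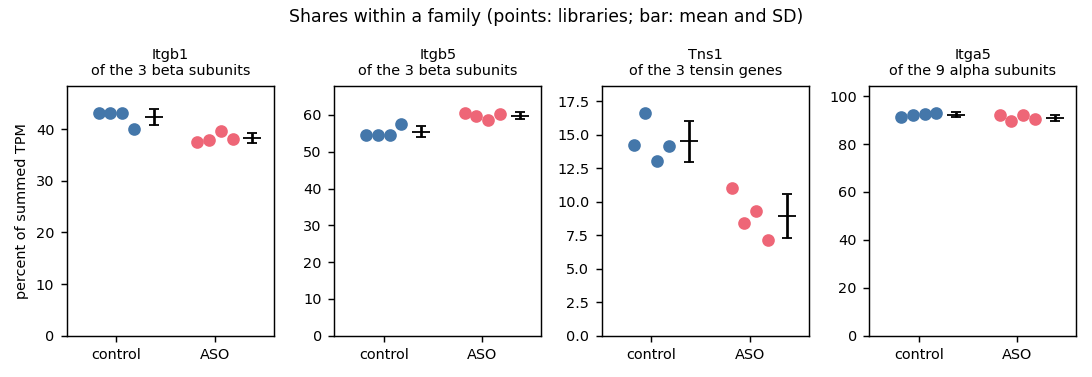
Percent of the summed TPM of the 3 beta subunits, 3 tensins or 9 alpha subunits taken by Itgb1, Itgb5, Tns1 and Itga5 in each library, with mean and SD as bars. The groups are apart for the first 3 shares and overlap for Itga5. None passed after adjustment over 9 shares, which a separated share could not do alone with so few libraries.

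Of the kinases and adaptors, none of 6 passed. Ptk2, which encodes FAK, was at 88.0, 82.8, 88.7 and 94.0 CPM in controls and 90.4, 95.7, 96.8 and 101 CPM with the ASO. The groups overlapped in CPM (log2 fold change 0.12 ± 0.06, adjusted p = 0.19, edgeR), with an interval from -0.01 to 0.24. Its paralogue Ptk2b (PYK2) was at 17.2, 18.1, 15.4 and 19.1 CPM in controls and 23.8, 22.3, 18.2 and 20.2 CPM with the ASO, overlapping through ASO replicate 3. Its log2 fold change was 0.27 ± 0.09 (adjusted p = 0.068, edgeR). Ptk2b passed in 4 of the 22 alternatives, among them without ASO replicate 3 (adjusted p = 0.039) and in samples 1 and 2 alone (adjusted p = 0.036). It took 15.7% ± 1.42 of the TPM of both genes in controls and 16.7% ± 1.87 with the ASO (exact permutation p = 0.43).

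Src, the tyrosine kinase that acts with FAK, was at 68.5, 71.9, 82.1 and 85.8 CPM in controls and at 91.0, 95.3, 87.6 and 86.8 CPM with the ASO. Controls 3 and 4 lay close to the ASO libraries, and controls 1 and 2 well below. The log2 fold change was 0.23 ± 0.07 (adjusted p = 0.054, edgeR), 0.41 in samples 1 and 2 alone (adjusted p = 0.0052) and 0.06 in samples 3 and 4 alone (adjusted p = 0.66). It passed without control replicate 3 (adjusted p = 0.044) or control replicate 4 (adjusted p = 0.032). In all, Src passed in 8 of the 22 alternatives run.

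Pxn, which encodes paxillin, the scaffold of nascent adhesions, was at 178, 187, 180 and 196 CPM in controls and 188, 181, 192 and 180 CPM with the ASO. These values overlapped fully, with a log2 fold change of -0.00044 and an interval from -0.12 to 0.12. Bcar1 (p130Cas, a scaffold that FAK and Src phosphorylate) was at -0.10, interval -0.25 to 0.05. Cav1 was at 633, 585, 624 and 589 CPM in controls and 593, 584, 512 and 491 CPM with the ASO, and ASO replicates 3 and 4 were the low ones. Its log2 fold change was -0.16 ± 0.07 (adjusted p = 0.14, edgeR) and passed in samples 3 and 4 alone (-0.27, adjusted p = 0.015).

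The ILK, PINCH and parvin complex links beta tails to actin beside kindlin, and none of its 3 genes passed. Ilk was at 178, 180, 182 and 189 CPM in controls and at 189, 177, 180 and 186 CPM with the ASO, a log2 fold change of 0.0035 with an interval from -0.11 to 0.12. Exons of Taf10 on the opposite strand cover 76.7% of the annotated exon bases of Ilk, so its counts are uncertain; Taf10 was at 85.3 ± 5.16 and 90.6 ± 5.80 CPM. Lims1 (PINCH-1) was at -0.13, interval -0.25 to 0.0016, and Parva at -0.10, interval -0.24 to 0.04.

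Zyx (gene 22793, chromosome 6, 42349511 to 42360213) was at 1529, 1673, 1773 and 1773 CPM in controls and at 1561, 1272, 1539 and 1284 CPM with the ASO. ASO replicates 1 and 3 overlapped control replicate 1, and ASO replicates 2 and 4 were lower. It fell by 0.25 ± 0.08 (adjusted p = 0.049, edgeR), at the edge of the threshold. The adjusted p rose to between 0.089 and 0.13 without control replicate 2, 3 or 4 or ASO replicate 2 or 4, and to 0.051 to 0.052 with other count scalings. Lpp, a zyxin relative, was at 0.03, interval -0.11 to 0.16. Tgfb1i1, which encodes the paxillin relative Hic-5, was at 102, 112, 130 and 146 CPM in controls and 117, 92.4, 99.8 and 89.3 CPM with the ASO. Controls 1 and 2 lay among the ASO libraries, and controls 3 and 4 above them. Its log2 fold change was -0.30 ± 0.11 (adjusted p = 0.078, edgeR), and it passed without control replicate 1 (adjusted p = 0.034) or ASO replicate 1 (adjusted p = 0.026).

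For some members the estimated log2 fold change was unlike between the pairs of sample numbers, but no interaction passed. Tgfb1i1 was at -0.03 (adjusted p = 0.89, edgeR) in samples 1 and 2 alone and at -0.54 (adjusted p = 1.2e-05) in samples 3 and 4 alone. The difference itself was tested as an interaction over all genes, a test added after the data were seen. In edgeR 0 of 12227 genes (0%) passed. An unadjusted p under 0.05 was found for 809 genes (6.62%), and these included 4 of the 31 tested members. They were Tgfb1i1 (-0.51, adjusted p = 0.39), Src (-0.35, adjusted p = 0.39), Cav1 (-0.23, adjusted p = 0.71) and Itga1 (0.66, adjusted p = 0.71). Fermt2, Tns1, Tns2 and Vcl passed in both parts, and Itga7 and Zyx in samples 3 and 4 alone.

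**Figure D5:**
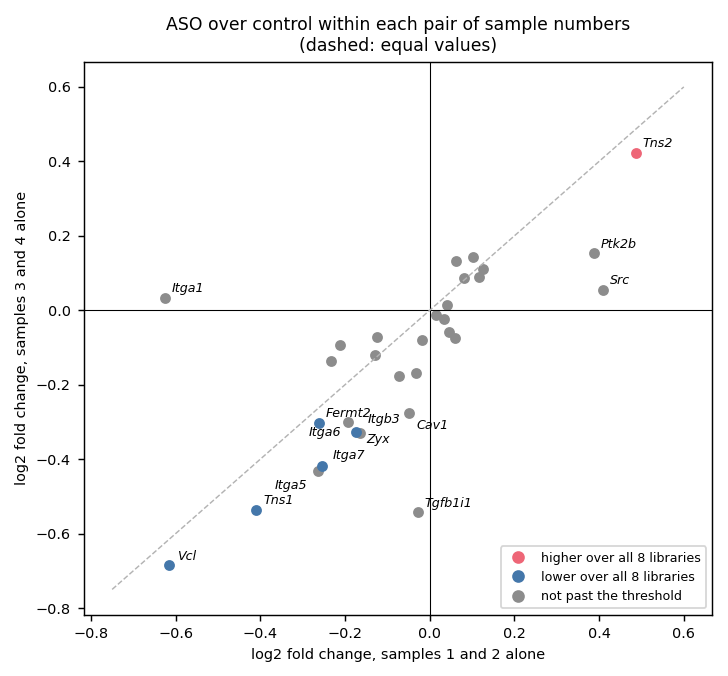
Log2 fold change, ASO over control, of the 31 tested members in samples 1 and 2 alone (horizontal) and samples 3 and 4 alone (vertical). Vcl, Tns1 and Tns2 lie near the line of equal values, while Tgfb1i1, Src and Itga1 lie away from it.

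Genes for integrin ligands were lower in 10 of 23 tested cases and higher in 0, against 7.53% lower and 7.11% higher of all tested genes. The median log2 fold change was -0.23, against 0.0026 over all genes. Vtn, which encodes vitronectin, the ligand of integrins with alpha v, was at 25.1, 27.9, 34.8 and 33.6 CPM in controls and 15.2, 12.8, 15.8 and 13.0 CPM with the ASO. The groups were far apart, and Vtn fell by 1.10 ± 0.11 (adjusted p = 8.1e-05, edgeR). Lama5, a laminin alpha chain, fell by 0.89 ± 0.09, Col4a1 and Col4a2, of basement membrane, by 0.54 ± 0.09 and 0.41 ± 0.07, Thbs1 by 0.39 ± 0.08 and Lamb1 by 0.31 ± 0.06. Fn1, which encodes fibronectin, the ligand of the alpha 5 receptor, did not pass (-0.23 ± 0.13, adjusted p = 0.27, edgeR), nor did the osteopontin gene Spp1 (0.13 ± 0.07, adjusted p = 0.24, edgeR).

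Of 15 other integrin subunit and integrin-like genes, 8 were tested, 3 were lower and 1 was higher, beside the same background of 7.53% and 7.11%. Itga10, a collagen receptor subunit, fell by 0.45 ± 0.10 (34.8 to 25.4 CPM), Itgb2 by 0.56 ± 0.11 and Itgbl1 by 0.52 ± 0.13. The call of Itgbl1 held in 4 of 8 leave-one-out fits. Itga2b, best known from platelets, was at 7.24, 8.57, 8.30 and 9.46 CPM in controls and 14.3, 14.7, 12.1 and 11.9 CPM with the ASO, and rose by 0.66 ± 0.11 (adjusted p = 0.0019, edgeR). Itgb2 and Itga2b are known from blood cells. The leukocyte marker sum, which includes Itgb2, was higher with the ASO, as given above. That rise lay mainly in Cd68 (10.4 to 29.8 TPM), while Ptprc stayed near 0.1 TPM. Of 5 tested leukocyte markers 1 was higher (Cd68) and 1 lower (Itgb2), and their part in these values was not tested. Itgb7, known from lymphocytes, was the highest of these at 141 TPM in controls and was at 0.32 ± 0.10 (adjusted p = 0.051, edgeR).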

How the data were processed

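The labels state Trizol extraction; HISAT, Bowtie2, GRCm38.p6 and mm10 are named, with no roles, in the submitters' processing notes. Which counting tool and strand setting were used was not given in the sources used here. A single table was deposited by the authors, with estimated counts, FPKM and TPM for each library, per the file headers. In each library 6.01% to 6.60% of the deposited estimated counts held a fraction, and all were rounded for testing. Among the members this touched Tln2 in 1 library. The authors' TPM, scaled by gene length and depth, were used for levels between genes and for shares, and the authors' FPKM were not used.

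Counts were filtered with filterByExpr (12227 genes kept), TMM-scaled and tested with edgeR 4.0.16 (quasi-likelihood, group as the single term, R 4.3.3), with Benjamini-Hochberg adjustment over all tested genes and a threshold of 0.05. Log2 fold changes are ASO over control, and CPM are after TMM. Standard errors and 95% intervals derive from the F statistic. At 0 reads the upper limit is 3 reads, or 0.157 CPM, from counting error alone. Shares were compared by exact two-sided permutation. The procedure was tested on simulated data.

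Alternatives were DESeq2 1.42.0, other scalings and filters, limma-trend (limma 3.58.1) on log2(TPM + 1) or log2(TPM + 0.1), a replicate block, the sample division, and each library left out. Subunit shares over all subunit genes in the table were added after seeing the data. Replicates differed by more than sampling noise (chi-square per degree of freedom 4.87 to 19.1). The members and gene lists were chosen with earlier results of these data known. Every member is named. Related genes are named when past the threshold, up to 6 per list by smallest p, except for actomyosin genes, where 3 of 5 are named. Fn1, Spp1 and Itgb7 were named after their values were seen. Motifs were also chosen after seeing the data. Coordinates, gene starts and promoters are RefSeq's for GRCm38.p6, and exon overlaps are GENCODE M21's. The start site of a promoter can lie inside its gene's coordinates, as for Fermt2. H19 and a count over 1 list of related genes are not reported here.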

Additional observations from a re-analysis of the deposited data

Results flagged for a closer look

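With 4 libraries in each group, a library was picked out where its gap to the nearest other library as a share of the group's range exceeded Dixon's 95% critical value. Of 80 groups examined (31 members and 9 shares, each in controls and ASO), 4 met this, and chance gives about 5% of groups. In control replicate 2, Itga6 was at 44.6 CPM, while the other controls lay between 39.7 and 40.2 CPM. In ASO replicate 3, Tns3 was at 242 CPM, while the other ASO libraries lay between 225 and 227 CPM. In control replicate 4, Itgb1 made up 40.1% of the summed TPM of Itgb1, Itgb3 and Itgb5, and Itgb5 57.6%, while the other controls lay between 43.1% and 43.2% for Itgb1 and at 54.6% for Itgb5. These last 2 values are parts of the same total and are not independent.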

How the results depend on the processing

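The 6 called members kept their direction in every alternative run. Vcl, Fermt2 and Tns2 passed in all of them, Itga7 in all but samples 1 and 2 alone, Tns1 in 12 and Zyx in 11 of 22. The uncalled Itga5 passed in 11, including the replicate block (adjusted p = 0.025), with which Itgb3 also passed (0.021). Of the other uncalled members, Src passed in 8, and Itgav, Itga6, Itgb3, Ptk2b and Tgfb1i1 in 4 each. Itgb1 passed in 3 and Cav1 in 2. Leaving out 1 library gave 1105 to 1940 called genes, 1 to 2 members higher, 3 to 7 lower, and 2 to 5 related genes (integrin ligands, other subunits, adaptors, actomyosin genes) higher and 17 to 22 lower. Against 1790 called genes, limma-trend without a filter gave 1167, samples 1 and 2 alone 1036, and the sample division as a term 3136. Members higher were 2 with DESeq2 (both settings) and library-size scaling, and 3 with the division or in samples 1 and 2 alone. Over all tested genes, in that order, 992 of 12227, 991 of 13489, 964 of 12227, 1560 of 12227 and 507 of 12295 were higher. Members lower were 12 with the division, 10 in samples 3 and 4 alone, and 3 with unfiltered limma-trend. Over all tested genes, in that order, 1576 of 12227, 1079 of 12265 and 613 of 16363 were lower. Related genes higher were 9 with the division and 3 with each limma-trend fit, and lower 36 with the division. With the replicate block, 2575 of 12227 genes were called, 1267 higher and 1308 lower. Of the members 3 were then higher and 9 lower, and of the related genes 8 were higher and 30 lower. Same-numbered libraries correlated at 0.05 to 0.21, not all above 0.1, and only control replicate 4 matched its own number best, so the numbers were not taken as pairs.

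Signs turned only for members near 0 or with few reads, all uncalled. Itga1 was at 0.033 in samples 3 and 4 alone. With upper-quartile scaling, library-size scaling and samples 1 and 2 alone, Pxn was at 0.0076, 0.017 and 0.014, and Actn1 at 0.0021, 0.010 and 0.046. Tns3 was at 0.0055 with library-size scaling and 0.060 in samples 1 and 2 alone. Ilk was at -0.00029 with the stricter filter, -0.020 in each limma-trend fit and -0.024 in samples 3 and 4 alone. With 1 library left out, ranges were -0.018 to 0.025 (Pxn), -0.076 to 0.052 (Actn1), -0.011 to 0.021 (Ilk), -0.043 to 0.041 (Tns3) and -0.015 to 0.054 (Lpp). The cause was not tested. With 4 libraries a group, changes of members under about 100 reads, such as Itga1, are poorly resolved.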

Other observations

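Among 49 tested adaptors and regulators of adhesion outside the 34 genes, 3 were higher and 4 lower, a share near the 14.6% called of all tested genes, with a median log2 fold change of -0.04. Fermt3, which encodes kindlin-3, the kindlin of blood cells, was at 1.23, 1.31, 1.93 and 2.25 CPM in controls and 6.11, 6.53, 4.78 and 5.45 CPM with the ASO. It rose by 1.76 ± 0.19 (adjusted p = 1.0e-04, edgeR), while kindlin-2, at far higher levels, fell. Pdlim5, a stress-fibre LIM gene, fell by 0.59 ± 0.08, Kank1, whose product binds talin around adhesions, by 0.47 ± 0.10, and Rasa1 by 0.28 ± 0.07, the last in 6 of 8 leave-one-out fits. The tyrosine kinase gene Fyn rose by 0.19 ± 0.05 and the filamin-binding gene Fblim1 by 0.27 ± 0.08, but these calls held in 2 and 3 of 8 leave-one-out fits.

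The next 3 genes are not a full account of the called actomyosin genes and their regulators, of which 1 was higher. Mylk, the myosin light chain kinase gene, was at 40.4, 50.1, 31.2 and 36.8 CPM in controls and 25.0, 26.3, 20.9 and 21.1 CPM with the ASO, with no overlap, and fell by 0.76 ± 0.12 (adjusted p = 0.0017, edgeR). The calponin gene Cnn3 fell by 0.26 ± 0.06. Srf, which encodes the factor that binds CArG boxes, was at 503, 508, 455 and 524 CPM in controls and 459, 389, 418 and 384 CPM with the ASO, and fell by 0.27 ± 0.07 (adjusted p = 0.019, edgeR). ASO replicate 1 overlapped control replicate 3, and the call held in 5 of 8 leave-one-out fits.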
